A study of Mus musculus with 6 samples.

Results

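The genes described here are 10 effector genes of Muller glia: Glul, Rlbp1, Slc1a3, Apoe, Clu, Vim, Car2, Aqp4, Kcnj10 and Cd9. They were taken as every probe set of the expression table that the array annotation assigns to a single gene symbol among these 10. This gave 23 of the 34945 singly named probe sets, and 10 of the 18193 genes that those probe sets name. All 10 genes were bright enough to be tested, as were 10916 genes in all.

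Muller glia are the main glial cells of the retina. They span its whole thickness, take up and recycle neurotransmitter, buffer water, potassium and acid, and exchange retinoids and lipids with neurons. They arise from the same progenitors as retinal neurons, are among the last cell types to be born, and at birth many of their genes are still carried largely by progenitors. The symbols are therefore those of genes that mature Muller glia use, and a signal from newborn retina is not by itself a measure of Muller glia.

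The retinas came from newborn mice of 2 genotypes, wildtype and cyclin D1 -/-, with 3 numbered pools of each and 1 Affymetrix array per pool. Cyclin D1, encoded by Ccnd1, is a partner of the kinases that take dividing cells from G1 into S phase. The labels give no strain, no treatment and no number of animals per pool, and they do not say how the null allele was made or whether pools shared litters. The p-values therefore measure only the spread between these pools. Because whole retinas were used, more cells of a type and more RNA per cell cannot be told apart.

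The starts of the genes are shown because 5 of these genes gave the results that matter most below: Glul, Vim and Apoe passed the test, and Rlbp1 and Slc1a3 had large differences that did not. RefSeq promoter windows of assembly GRCm38.p6, running from 250 bases before to 50 bases after an annotated start, were matched for 7 of the 10 genes by symbol. Capitals mark TTGGC or its reverse complement GCCAA, the recognition core of nuclear factor I proteins, transcription factors that take part in gliogenesis. For Apoe the most upstream of 3 annotated starts is shown.
Glul (chr1:153899679-153899978, strand +): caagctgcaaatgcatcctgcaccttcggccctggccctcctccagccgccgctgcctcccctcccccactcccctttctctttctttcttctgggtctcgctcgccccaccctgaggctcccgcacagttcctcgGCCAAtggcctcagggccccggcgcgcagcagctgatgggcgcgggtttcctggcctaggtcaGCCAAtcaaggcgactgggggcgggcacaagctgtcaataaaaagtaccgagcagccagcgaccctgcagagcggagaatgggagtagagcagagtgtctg
Vim (chr2:13574061-13574360, strand +): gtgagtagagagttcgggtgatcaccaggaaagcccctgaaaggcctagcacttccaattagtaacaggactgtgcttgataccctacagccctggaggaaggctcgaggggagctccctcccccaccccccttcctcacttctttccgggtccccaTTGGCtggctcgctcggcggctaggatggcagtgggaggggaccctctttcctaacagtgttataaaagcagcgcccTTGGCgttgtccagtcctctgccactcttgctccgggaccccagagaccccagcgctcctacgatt
Apoe (chr7:19699139-19699438, strand -): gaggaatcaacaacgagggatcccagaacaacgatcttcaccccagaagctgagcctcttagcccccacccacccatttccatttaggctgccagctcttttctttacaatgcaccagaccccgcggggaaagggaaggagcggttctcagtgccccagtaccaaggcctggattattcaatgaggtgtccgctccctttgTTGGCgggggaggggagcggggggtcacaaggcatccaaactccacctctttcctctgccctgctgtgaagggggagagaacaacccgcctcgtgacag
Rlbp1 (chr7:79386978-79387277, strand -): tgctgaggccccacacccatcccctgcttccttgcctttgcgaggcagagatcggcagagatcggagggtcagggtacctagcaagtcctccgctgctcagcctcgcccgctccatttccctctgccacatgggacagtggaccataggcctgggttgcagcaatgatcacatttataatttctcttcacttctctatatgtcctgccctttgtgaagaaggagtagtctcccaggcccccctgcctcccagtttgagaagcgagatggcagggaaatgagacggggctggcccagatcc
Slc1a3 (chr15:8710758-8711057, strand -): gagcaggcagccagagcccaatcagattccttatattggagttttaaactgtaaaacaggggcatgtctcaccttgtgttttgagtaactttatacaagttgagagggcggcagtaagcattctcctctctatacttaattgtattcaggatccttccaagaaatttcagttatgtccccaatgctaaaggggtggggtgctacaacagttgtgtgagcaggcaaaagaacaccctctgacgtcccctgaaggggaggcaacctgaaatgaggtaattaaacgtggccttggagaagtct

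A match is only a run of letters and was not tied to binding. Of the 7 genes, 4 held the nuclear factor I core in at least 1 window (Glul, Vim, Apoe and Kcnj10), against 46.7% of all 32851 windows of this length in the table. In Glul the matches start 114 and 51 bases before the gene's start, and both overlap a CCAAT box. In Vim they start 93 and 16 bases before it, and the farther match overlaps a CCAAT box. In Apoe the match starts 49 bases before it. The CCAAT box (CCAAT or ATTGG) was found in 4 of the 7 genes and in 37.4% of all windows. The core read by SOX factors (ACAAT or ATTGT) was found in 2 and in 31.0%, the core read by the Notch effector RBPJ (TGGGAA or TTCCCA) in 2 and in 25.6%, and the homeodomain core TAATTA in 1, Slc1a3, and in 5.29%.

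Before the comparison, the arrays themselves were examined. Arrays had median deposited signals of 40.6 to 50.5 units, and precision is limited by their number. Ccnd1 signal was 5218 to 6017 in wildtype pools and 432 to 468 in knockout pools, which matches every label. Pools 1 and 2 of a genotype were the most alike (SD of the log2 difference over tested genes 0.223 for wildtype and 0.206 for knockout, against 0.275 to 0.517 for the other pairs). Wildtype pool 3 and knockout pools 1 and 2 had brighter BioB and BioC hybridisation controls (960.5 to 1201.5 units) than the other 3 arrays (771.0 to 854.1 units). The cut was made by rank, 3 arrays on each side, and no label names such sets. The 3 arrays with brighter controls also had the higher median deposited signals (48.2 to 50.5 against 40.6 to 44.5 units). Differences are therefore also given within each of these sets, where 1 array of a genotype is set against 2 of the other, and after averaging pools 1 and 2 within a genotype. Beta-actin signal at the 3' end over that at the 5' end, a sign of RNA integrity, was 1.70 to 2.22 in wildtype and 1.49 to 2.03 in knockout pools.

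The comparison asked how the glial genes differ when cyclin D1 is absent. Of the 10, 3 rose in knockout retinas: Apoe by 2.16-fold, Glul by 1.38-fold and Vim by 1.29-fold. None fell. Rlbp1, Slc1a3, Clu and Kcnj10 were higher in all 3 knockout pools than in any wildtype pool but did not pass the test, and Car2, Aqp4 and Cd9 overlapped between genotypes. Of all genes tested, 2.03% were called higher and 2.63% lower at an adjusted p of 0.1, the false discovery rate that the submitters used. With values as deposited, the share of calls that were higher was 70.3%, against 43.6% after quantile normalisation. The median log2 difference was 0.41 over the 10 genes and 0.02 over all genes tested. The 3 knockout pools lay above all 3 wildtype pools in 7 of the 10, against 10.5% of all genes, and below them in 0, against 9.48%. At an unadjusted p under 0.05 there were 6 of the 10, all higher in knockout, against 6.68% of all genes higher and 6.84% lower. The 10 genes were chosen with earlier results of these data known, so these contrasts with all genes describe the group and do not test it. Signals below are normalised linear values of the brightest probe set of a gene, and levels are log2(signal + 16), given as mean ± SD with n = 3 pools.

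**Figure D1:**
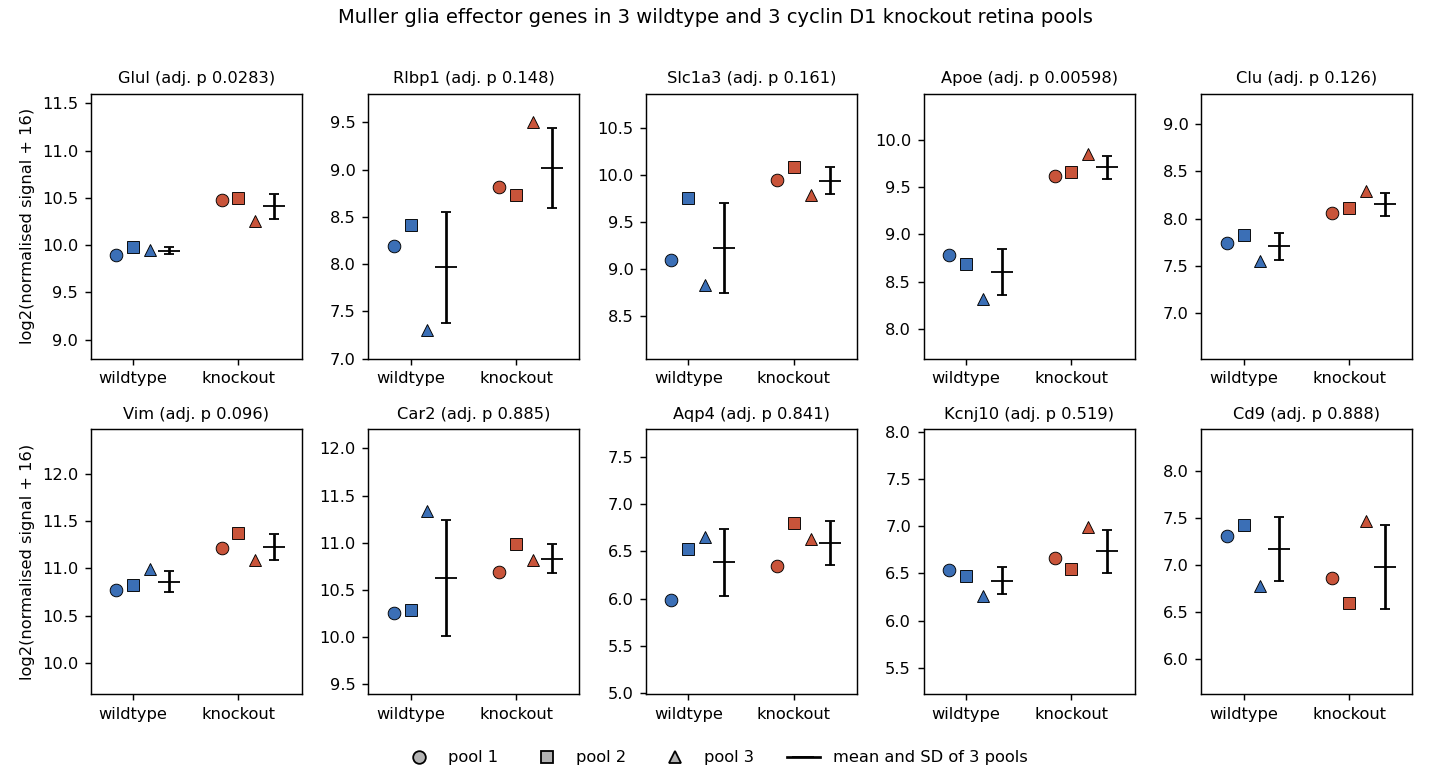
Level of each of the 10 genes, as log2(normalised signal + 16), in the 3 wildtype (blue) and 3 knockout (red) pools, each pool with its own marker, beside the mean and SD. Every panel spans the same log2 range, and in 7 of the 10 the knockout pools lie wholly above the wildtype pools.

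Glul encodes glutamine synthetase, which turns the glutamate that glia take up into glutamine. Its signal was 940.5, 997.4 and 974.4 in wildtype pools 1 to 3 and 1409, 1432 and 1213 in knockout pools 1 to 3. The wildtype pools were close together, and the lowest knockout pool lay above all of them. The level rose from 9.95 ± 0.04 to 10.41 ± 0.13 (log2 difference 0.47, SE 0.09, adjusted p = 0.0283). The difference was 0.54 within the arrays with brighter controls and 0.32 within the others. In its other, dimmer probe set wildtype pool 3 (232.3) lay well below wildtype pools 1 and 2 (366.9 and 355.9), and the difference was 0.39 (adjusted p = 0.551 over all probe sets). The call of the gene was lost in 7 of 21 alternatives. It was lost without wildtype pool 1 (adjusted p = 0.125), knockout pool 1 (adjusted p = 0.156) or knockout pool 2 (adjusted p = 0.157), and with averaged pools (adjusted p = 0.436). Arrays centred on their median (adjusted p = 0.12), no intensity trend (0.103) and the submitters' error model (0.175) lost it too. The adjusted p ranged from 0.000651 to 0.436 over all alternatives.

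Slc1a3 encodes GLAST, the transporter that carries glutamate into Muller glia and is also made by radial progenitors. Its signal was 533.4, 843.1 and 440.2 in wildtype and 967.2, 1067 and 866.8 in knockout pools 1 to 3. Wildtype pool 2 came close to the lowest knockout pool, so the genotypes did not overlap but the wildtype spread was wide. The level was 9.23 ± 0.47 in wildtype and 9.94 ± 0.15 in knockout retinas (log2 difference 0.71, SE 0.21, adjusted p = 0.161). Without wildtype pool 2 the difference was 0.98 and passed (adjusted p = 0.0193, range 0.0129 to 0.508 over the alternatives). Of its 6 probe sets, 4 had differences from 0.71 to 0.86 with no overlap of genotypes, and the other 2, both dim, had differences of -0.00 and 0.05.

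Rlbp1 encodes the cellular retinaldehyde-binding protein, which carries retinoids in Muller glia and pigment epithelium. Its signal was 275.7, 324.1 and 141.6 in wildtype and 436.9, 409.6 and 709.2 in knockout pools 1 to 3. Wildtype pool 3 was far below the other wildtype pools and knockout pool 3 far above the other knockout pools, so the spread was large on both sides of a gap between the genotypes. The level was 7.97 ± 0.59 in wildtype and 9.02 ± 0.42 in knockout retinas (log2 difference 1.05, SE 0.31, 95% confidence interval 0.34 to 1.77, adjusted p = 0.148). The difference was 1.48 within the arrays with brighter controls and 1.20 within the others. Without wildtype pool 3 it was 0.72 and passed (adjusted p = 0.0767, range 0.000506 to 0.431 over the alternatives).

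Apoe encodes apolipoprotein E, the lipid carrier that retinal glia secrete. Its signal was 422.6, 396.2 and 303.3 in wildtype and 770.1, 792.6 and 904.7 in knockout pools 1 to 3. Every knockout pool was well above every wildtype pool. The level rose from 8.59 ± 0.24 to 9.71 ± 0.12 (log2 difference 1.11, SE 0.14, adjusted p = 0.00598). The difference was 1.32 and 1.11 within the arrays with brighter and dimmer controls and 0.98 to 1.21 when any 1 array was left out, where the call held each time. It was lost in 1 of 21 alternatives, with averaged pools (adjusted p = 0.107, range 7.3e-05 to 0.107).

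Clu encodes clusterin, a secreted chaperone that also binds lipids. Its signal was 197.7, 211.9 and 171.6 in wildtype and 251.6, 260.4 and 297.7 in knockout pools 1 to 3. The genotypes did not overlap, and pool 3 was lowest in wildtype and highest in knockout. The level was 7.71 ± 0.14 in wildtype and 8.16 ± 0.12 in knockout retinas (log2 difference 0.45, SE 0.12, adjusted p = 0.126). Of 4 probe sets, 3 did not overlap (differences 0.45, 0.59 and 0.87) and the other overlapped (0.20). Without wildtype pool 3 the gene passed (difference 0.37, adjusted p = 0.0628, range 0.0182 to 0.664 over the alternatives).

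Vim encodes vimentin, the intermediate filament of Muller glia and of retinal progenitors. Its signal was 1732, 1793 and 2019 in wildtype and 2368, 2623 and 2164 in knockout pools 1 to 3. The highest wildtype pool lay just below the lowest knockout pool. The level rose from 10.86 ± 0.12 to 11.23 ± 0.14 (log2 difference 0.36, SE 0.09, adjusted p = 0.0960), close to the threshold. The call was lost in 11 of 21 alternatives. It was lost without wildtype pool 1 (adjusted p = 0.304), wildtype pool 2 (adjusted p = 0.272), knockout pool 1 (adjusted p = 0.313) or knockout pool 2 (adjusted p = 0.364). Among the other losses were arrays centred on their median (adjusted p = 0.316), no intensity trend (0.246) and the submitters' error model (0.283). The adjusted p ranged from 0.00153 to 0.760 over the alternatives. The other 2 probe sets of Vim had larger differences, 0.64 and 0.42, and no overlap.

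Aqp4 and Kcnj10 encode the water channel aquaporin-4 and the potassium channel Kir4.1, which sit together on the end feet of mature Muller glia. Aqp4 signal was 47.0, 75.9 and 84.5 in wildtype and 65.2, 95.2 and 83.1 in knockout pools 1 to 3, and the genotypes overlapped (log2 difference 0.21, SE 0.21, adjusted p = 0.841). The Aqp4 difference was -0.08 within the arrays with brighter controls and 0.38 within the others. Kcnj10 signal was 77.1, 72.5 and 60.7 in wildtype and 84.9, 78.0 and 111.5 in knockout pools 1 to 3. The Kcnj10 groups were barely apart (log2 difference 0.31, SE 0.17, adjusted p = 0.519). Both genes lay near the level under which genes were not tested, 6.21 on the log2 scale, with means of 6.38 and 6.42 in wildtype retinas. A dimmer Aqp4 probe set did not overlap between genotypes (difference 0.58, adjusted p = 0.353 over all probe sets).

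Car2 encodes carbonic anhydrase 2, which hydrates carbon dioxide in Muller glia. Its signal was 1211, 1238 and 2573 in wildtype and 1641, 2014 and 1789 in knockout pools 1 to 3. Wildtype pool 3 was the highest of all 6, while the other wildtype pools were the lowest. The level was 10.63 ± 0.61 in wildtype and 10.83 ± 0.15 in knockout retinas (log2 difference 0.20, 95% confidence interval -0.41 to 0.81, adjusted p = 0.885). Without wildtype pool 3 the difference was 0.54 and passed (adjusted p = 0.0104, range 0.0104 to 1.00 over the alternatives). Within the arrays with brighter controls it was -0.50 and within the others 0.54, so its direction differed between the sets.

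Cd9 encodes a tetraspanin, a membrane protein that organises adhesion and signalling partners and is found on Muller glia. Its signal was 142.7, 155.0 and 94.2 in wildtype and 100.4, 81.0 and 160.7 in knockout pools 1 to 3. Each genotype held both low and high pools. The log2 difference was -0.19 (SE 0.26, 95% confidence interval -0.79 to 0.40, adjusted p = 0.888), and it was -0.05 and 0.10 within the arrays with brighter and dimmer controls.

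**Figure D2:**
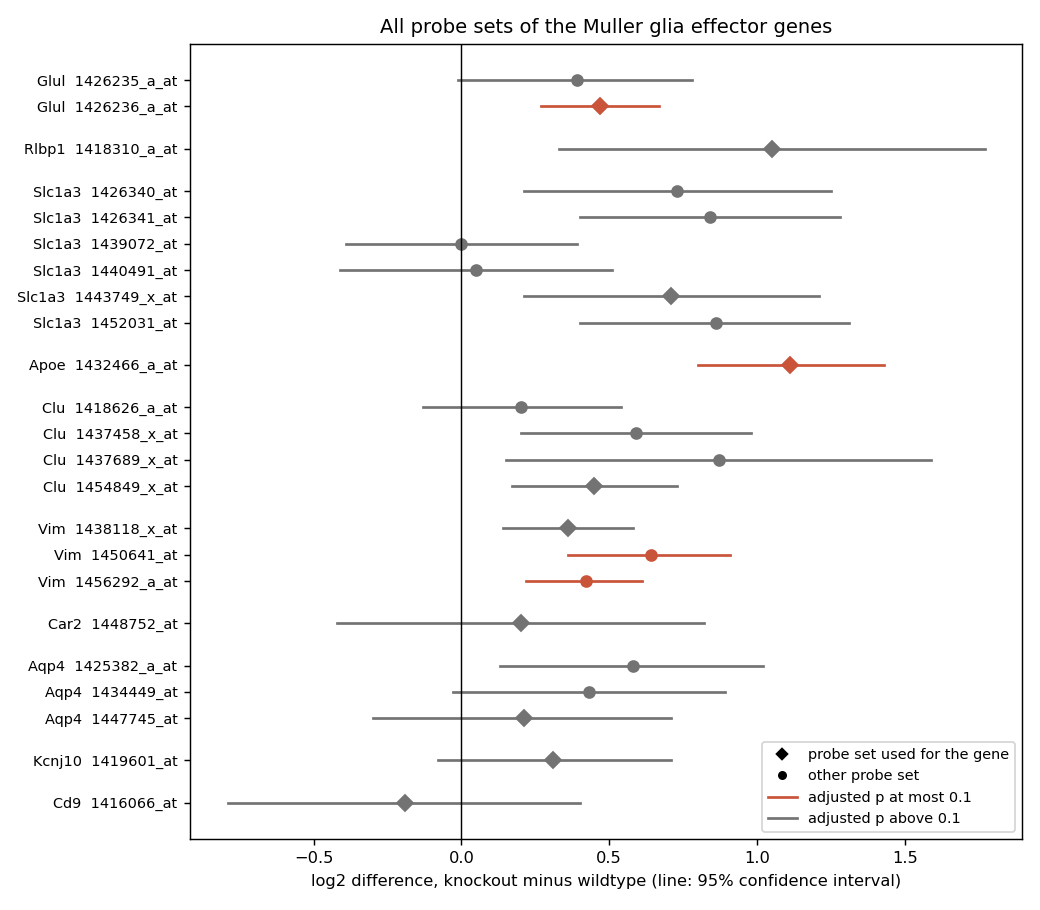
Log2 difference, knockout minus wildtype, of each of the 23 probe sets of the 10 genes, with its 95% confidence interval, in the fit over all 34945 singly named probe sets. Diamonds mark the brightest probe set of each gene, red marks an adjusted p of at most 0.1, and 21 of the 23 differences are above 0.

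In a fit over all 34945 singly named probe sets, 4 of the 23 probe sets were called higher (1 each of Apoe and Glul and 2 of Vim) and 0 lower, against 0.61% and 0.899% of all. More features share the adjustment there, and the brightest Vim probe set did not pass (adjusted p = 0.199). The median difference of the 23 was 0.45 and that of all probe sets 0.01. In 16 of the 23 the knockout pools lay above all wildtype pools, and in 0 below, against 7.41% and 7.23% of all probe sets. Probe sets of 1 gene are repeated readings of it on the same arrays, so the 23 are not separate members. Dim probe sets were not left out of this fit. Of the 10 genes, 5 had a single probe set, so their values cannot be compared with another.

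The pools of a genotype also differed among themselves. Wildtype pool 3 was the lowest array for 5 of the 10 genes (Rlbp1, Slc1a3, Apoe, Clu and Kcnj10) and the highest for Car2. Against the mean of wildtype pools 1 and 2 it was lowest relative to them for Rlbp1, followed by Slc1a3 (-0.59 on the log2 scale), Cd9 (-0.58) and Apoe (-0.41). It was higher than them by 1.06 for Car2 and 0.40 for Aqp4. Knockout pool 3 was the highest array for 5 genes (Rlbp1, Apoe, Clu, Kcnj10 and Cd9), and against knockout pools 1 and 2 the log2 difference was 0.72 for Rlbp1 and 0.73 for Cd9. Without wildtype pool 3, 6 of the 10 genes were called higher: Apoe, Glul, Vim, Clu, Rlbp1 and Car2. Calls over all genes rose too, to 7.92% higher and 9.88% lower. Without wildtype pool 1, knockout pool 1 or knockout pool 2 only Apoe was, and averaging pools 1 and 2 within a genotype left 0. Within both sets of arrays 7 of the 10 differences were above 0. The share of all genes above 0 in both sets was not counted, so this count has nothing to be read against.

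**Figure D3:**
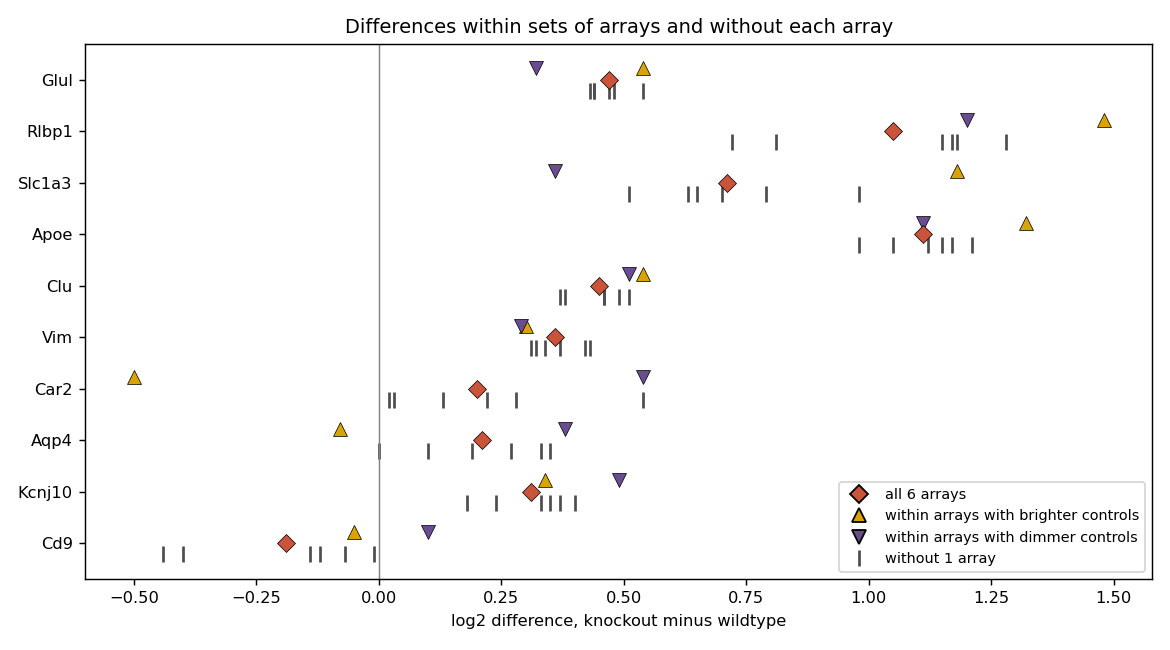
Log2 difference, knockout minus wildtype, of each of the 10 genes over all 6 arrays (diamonds), within the arrays with brighter or dimmer hybridisation controls (triangles), and with 1 array left out at a time (ticks). Apoe stays at or above 0.98 throughout. Car2 (-0.50) and Aqp4 (-0.08) change sign within the brighter set, and Cd9 (0.10) within the dimmer set.

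Genes that act beside these were counted from lists by role, and most of their members did not pass the test. Each list here and below is to be read against the 2.03% of all genes called higher and 2.63% called lower. Of 9 tested genes of glutamate and glutamine handling, 1 rose and 1 fell (median log2 difference -0.05). Slc3a2, a subunit of amino acid exchangers, was higher (0.47, adjusted p = 0.0985) and the glutamine transporter Slc38a2 lower (-0.46, adjusted p = 0.0431). Of 3 tested retinoid genes, Rdh10, a retinol dehydrogenase, rose 2.37-fold from 8.51 ± 0.09 to 9.76 ± 0.06 (adjusted p = 0.00108), and 6 others, Rpe65, Lrat and Rgr among them, were too dim to test. Of 10 lipid genes 1 rose and 1 fell (median 0.01): Abca1, the transporter that loads lipid onto apolipoproteins, rose 1.73-fold (adjusted p = 0.0283), and Dbi, a binder of acyl-CoA, fell by 0.81 on the log2 scale (adjusted p = 0.0337). Of 7 intermediate filament genes, only the neuronal filament gene Ina rose (1.65-fold, adjusted p = 0.0129, median of the list 0.13).

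Of 12 genes of water, potassium and acid-base handling, 2 rose and 0 fell (median 0.13): Sntb1, a syntrophin of the dystrophin complex that anchors channels (0.66, adjusted p = 0.0510), and Atp1b2, a sodium pump subunit (0.35, adjusted p = 0.0871). Of 6 tetraspanin genes and partners, Tspan3 rose (0.33, adjusted p = 0.0629, median 0.16). Rdh10 and Ina kept their calls when any 1 array was left out. In those fits Slc3a2, Slc38a2, Abca1, Sntb1, Atp1b2 and Tspan3 kept theirs only without wildtype pool 3. Dbi kept its call there only without wildtype pool 3 or knockout pool 3. Leaving out wildtype pool 3 raised calls over all genes to 7.92% higher and 9.88% lower. It also moved the counts of the lists. There were 2 higher and 2 lower for glutamate and glutamine, and 3 and 1 for lipids. There were 4 and 0 for water, potassium and acid-base, and 2 and 0 for tetraspanins. With averaged pools only Rdh10 kept its call among these (adjusted p = 0.0625).

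Of 26 other tested Muller glia markers, 5 rose and 0 fell, against 2.03% and 2.63% of all genes, with a median of 0.05. Differences were above 0 in 15 of the 26, against 54.3% of all genes tested. The knockout pools lay above all wildtype pools in 7 and below them in 3, against 10.5% and 9.48% of all genes. The 3 below were Crym (log2 difference -0.41, adjusted p = 0.123), Ptgds (-0.16, adjusted p = 0.651) and Gnai2 (-0.12, adjusted p = 0.579). Col9a1, a collagen chain, rose 4.26-fold from 9.42 ± 0.03 to 11.51 ± 0.04 (adjusted p = 5.06e-06), and Sparc, a secreted matrix protein, rose 3.95-fold from 8.35 ± 0.26 to 10.33 ± 0.09 (adjusted p = 0.000996). Id3, an inhibitor of basic helix-loop-helix factors, rose 2.45-fold (adjusted p = 0.0169), and its relative Id1 and the secreted protein Dkk3 had log2 differences of 0.67 and 0.35 (adjusted p = 0.0689 and 0.0454). Col9a1, Sparc and Id3 kept their calls without any 1 array, and Col9a1 and Sparc also with averaged pools (adjusted p = 0.00272 and 0.0276). With 1 array left out at a time, Dkk3 kept its call only without wildtype pool 3, and Id1 only without wildtype pool 1 or 3. The 5 calls became 3 without wildtype pool 2 or any 1 knockout pool. Leaving out wildtype pool 3 gave 8 higher and 2 lower, against 7.92% and 9.88% of all genes. These lists are wider than the 10 genes and were not tested as lists.

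**Figure D4:**
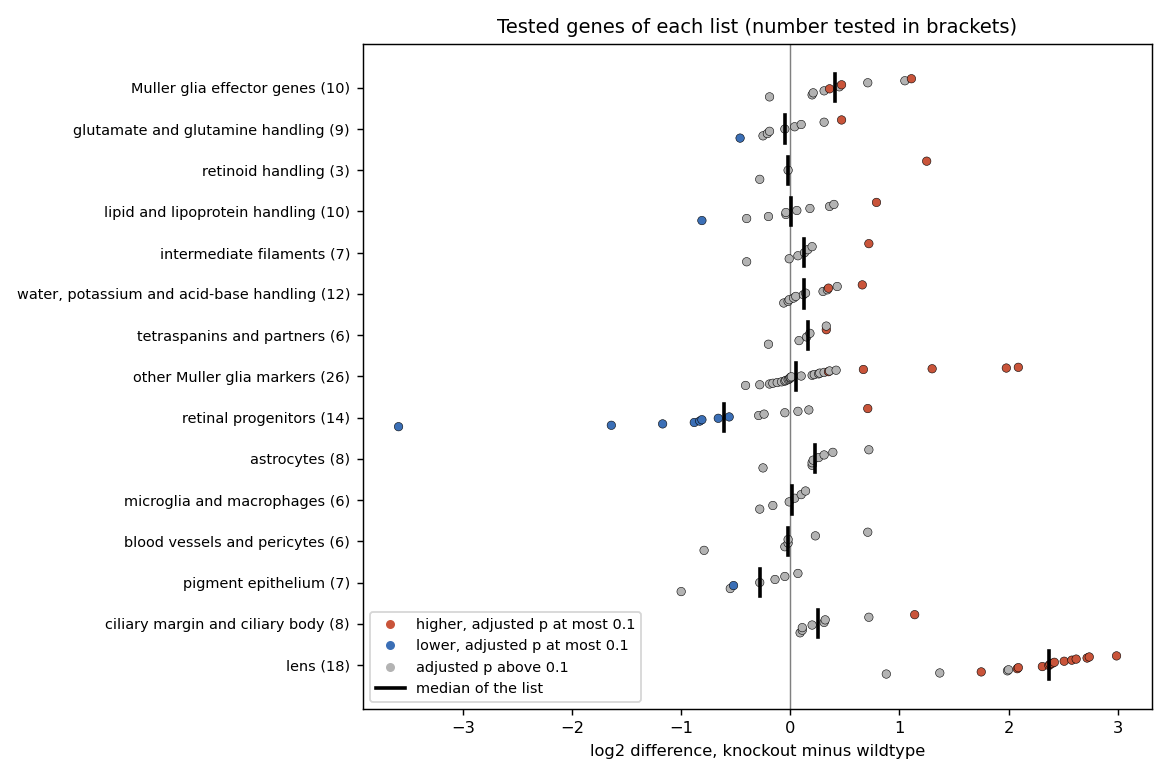
Log2 difference, knockout minus wildtype, of each tested gene in the 10 effector genes, the lists by role and the lists of cell type markers, with the median of each list as a bar. The lens genes lie far to the right (median 2.37) and the progenitor genes to the left (median -0.61).

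Markers of other cells in or near the retina moved with genotype in some lists. Of 14 genes of progenitors, which also express Vim and Slc1a3, 8 fell and 1, the growth factor gene Fgf15, rose (0.71, adjusted p = 0.0620, median of the list -0.61). Fgf15 did not pass when pool 1 or 2 of either genotype was left out, nor with averaged pools. Those that fell include Ccnd1 itself and Top2a, of chromosome separation (-1.17, adjusted p = 0.00108). The summed signal of the named genes of that list was 17357 to 18133 in wildtype and 8219 to 8729 in knockout pools. The sum includes Ccnd1, the gene knocked out, at 5218 to 6017 in wildtype and 432 to 468 in knockout pools. The fall of Ccnd1, also counted among the 8, follows from the genotype and is no measure of progenitors. Pcna, the replication clamp, was the brightest member by mean level over all 6 arrays and lower by 0.81 (log2) in knockout. The part of the change in progenitors in the differences of the 10 genes was not tested. Of 18 lens genes 14 rose and 0 fell, and the crystallins Cryba1 and Cryba2 had the smallest p (differences 2.37 and 2.38, adjusted p = 0.0108 and 0.0191). The summed signal of all 21 named lens genes was 10066, 10381 and 3812 in wildtype and 29594, 28807 and 73961 in knockout pools 1 to 3. Wildtype pool 3 was thus lowest and knockout pool 3 highest, as for Rlbp1, Apoe, Clu and Kcnj10. Lens cells can express Vim and Clu, and the part of lens tissue in the differences of the 10 genes was not tested. The 14 lens calls became 7, 6 and 7 without knockout pools 1, 2 and 3, 1 when replicate number was blocked and 0 with averaged pools.

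Of 8 ciliary margin genes, 1 was called higher, 0 were called lower and the median was 0.25. The 1 called, Wfdc1, a marker of that zone, was below the level for testing in every wildtype pool (5.82 on average) and entered only through the knockout pools (6.97), so its call supports nothing here. The summed signal of all 13 named genes was 1326 to 1468 in wildtype and 1725 to 1796 in knockout pools, with Zic1 its brightest member (log2 difference 0.31, adjusted p = 0.186). Without wildtype pool 3, 3 of the then 9 tested genes of this list were called higher, against 7.92% of all genes. Genes that entered only through the knockout pools were not set apart there, so that count supports nothing either. Of 7 genes of pigment epithelium, which also expresses Rlbp1, Pmel, of the pigment granule, was lower and also the brightest (-0.52, adjusted p = 0.0948), and none was higher. The summed signal of all 14 named genes of that list was 1321 to 1784 in wildtype and 1127 to 1245 in knockout pools. With 1 array left out at a time, the Pmel call held only without wildtype pool 3. There 3 genes of the list were lower, against 9.88% of all genes.

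Of 8 astrocyte genes, which include Aqp4, 0 were called (median 0.23), and the brightest, the glutamate transporter Slc1a2, was -0.25 (adjusted p = 0.320). The summed signal of all 9 named genes of that list was 819 to 1017 in wildtype and 1098 to 1111 in knockout pools, and Gfap, the astrocyte filament, was 6.94 ± 0.29 and 7.14 ± 0.17 on the log2 scale. Of 6 tested genes of microglia and macrophages, cells that make much Apoe, 0 were called and the median was 0.02. The summed signal of all 14 named genes of that list was 897 to 1000 in wildtype and 905 to 960 in knockout pools. The brightest, Csf1r, was 0.14 (adjusted p = 0.877), and 8 of the 14 listed, Aif1 and Cx3cr1 among them, were too dim to test. Of 6 tested genes of blood vessels and pericytes 0 were called (median -0.02), and all 13 named genes summed to 1821 to 1872 in wildtype and 1824 to 1890 in knockout pools, with Kdr the brightest (-0.02, adjusted p = 0.976). Without wildtype pool 3, 1 astrocyte gene was lower and 1 vessel gene higher and 1 lower, where 7.92% of all genes were higher and 9.88% lower. The 4 named red blood cell genes were all too dim to test, with summed signals of 89 to 113 and 72 to 107. No gene of any list was listed at 0 signal on any array, but normalised signals went down to 1.0. The absence of 0 therefore does not show that every gene was detected.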

How the data were processed

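The deposited table gives a linear intensity for every probe set on each array. Per the labels' protocols, a Qiagen column kit was used for RNA and the biotin-labelled probes went through 1 round of amplification. Which program summarised the probes, and its scaling, is not given in the sources used here. Of 45101 probe sets, 64 controls were left out, and only the 34945 with 1 symbol in the platform annotation were used, with symbols brought up to date by Entrez identifier from RefSeq (GRCm38.p6).

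Array medians differed by more than 0.1 (log2), so values were quantile normalised and taken to log2(value + 16), a scale on which folds of dim genes come out too small. The brightest probe set stood for its gene, and tests left out the dimmest 40% of genes (7277). Genotypes were compared with limma 3.58.1 in R 4.3.3 across all genes (eBayes with an intensity trend, no covariate, two-sided, Benjamini-Hochberg, threshold 0.1), and the script was tested on simulated data. Other settings and single arrays left out are compared in the closing section, and no set test was run.

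The 10 genes, the lists and the rule for naming genes were chosen with earlier results of these data known. The rule names all 10, Ccnd1, up to 3 called genes per direction of each role list, and up to 2 called genes and the brightest gene of each cell type list. Dkk3, Id1, Crym, Ptgds, Gnai2, Fgf15, Gfap, Rpe65, Lrat, Rgr, Aif1 and Cx3cr1 were named after their values were seen. Some listed genes were not analysed here. Figures were drawn with matplotlib 3.10.9.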

Additional observations from a re-analysis of the deposited data

How the results depend on the processing

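The 3 genes called higher became 6 with values as deposited, 1 with arrays centred on their median, 1 without an intensity trend, 1 with the submitters' error model, 8 with array weights, 7 when the array set was a block and 0 after averaging pools 1 and 2 within a genotype. With 1 array left out the genes called higher ranged from 1 to 6. Calls over all genes moved with these settings too, as given in the next paragraph. The 0 genes called lower became 1 (Cd9) with array weights. The median difference of 0.41 ranged from 0.36 to 0.61, and 0.61, with the probe set of largest difference, was the only value to move by more than the spread between pools (0.10). The difference of Cd9 changed sign, to 0.024, with averaged pools and with the set as a block. No other gene changed sign in an alternative, though Aqp4 reached 0.00 with 1 array left out. Within the arrays with brighter controls alone, Car2 (-0.50) and Aqp4 (-0.08) were below 0. Rlbp1 exceeded Apoe with averaged pools or the set as a block (1.34 against 1.22). It also did so without wildtype pool 2 (1.28 against 1.17) or knockout pool 2 (1.18 against 1.12), and both were 1.15 without knockout pool 1. The cause was not tested.

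With values as deposited, 70.3% of all called genes were higher, against 43.6%, and the median of all genes was 0.13. Over all genes, the 222 higher and 287 lower became 865 and 1079 without wildtype pool 3 and 17 and 26 with averaged pools, which leaves 2 samples per genotype. They became 1857 and 1747 of the 10916 genes tested with array weights and 597 and 433 with the array set as a block. With values as deposited they were 416 and 176, and with arrays centred on their median 118 and 121. Without an intensity trend they were 150 and 230, and with the submitters' error model 88 and 120. The replicate number as a block gave 2 genes higher (Apoe and Glul). Deviations of same-numbered pools from their genotype means had correlations of 0.173, -0.352 and -0.480. Wildtype pool 2 and knockout pool 3 had 0.551. With so few pools such deviations cannot show whether same-numbered pools shared litters or preparation, so pairing was not settled. The submitters' error model was rewritten from its stated settings. For array weights the gene-by-gene method was used. Signal over background cannot be given, since no detection calls were used, and Aqp4 and Kcnj10 fall out when the lowest 60% of genes are left out.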
